A study of Mus musculus with 20 samples.

Results

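The output of AP-1 and ERK signalling was read from 10 genes in RNA from 20 mouse tumours. They are the immediate early transcription factors Fos, Fosb, Jun, Junb, Egr1 and Atf3, the early phosphatase Dusp1, and Fosl1, Dusp6 and Spry4, which are known to follow sustained ERK signalling. The 10 were picked by symbol and read by Ensembl identifier through the GENCODE vM21 annotation of mm10, out of 55335 genes in the deposited tables. All 10 were among the 13982 genes that reached 1 FPKM (fragments scaled by transcript length and library size) in at least 5 libraries and so entered the test. In what follows, the first 7 are called the early genes and the last 3 the ERK-linked genes.

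All tumours were of CT26, a line derived from a colon carcinoma of a BALB/c mouse. Tumours of cells with a POLE mutant received an antibody against PD-1, a brake on T cells, in 5 mice and PBS in 5, and tumours of cells with the vector alone were treated likewise in 5 and 5. The groups are mutant anti-PD-1, mutant PBS, vector anti-PD-1 and vector PBS. The series title names CHEK2 where the sample labels name POLE, and the labels name no strain, age, dose, time or separate clones, so any other difference that arose between the lines cannot be told apart from the mutant itself. Replicate numbers follow the order of deposition and only name a tumour.

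AP-1 is a dimer, commonly of a Jun protein with a Fos or Atf protein. Several of its subunits are made within minutes of a stimulus because their genes are switched on without new protein synthesis. Growth factor signals passing through Ras, Raf, Mek and ERK induce them, as do stress kinases, and the same signals induce phosphatases and Sprouty proteins that feed back on the cascade. Handling and dissociating tissue is known to induce Fos, Fosb, Jun, Junb, Egr1, Dusp1 and Atf3 within the time of a dissection, whereas Fosl1, Dusp6 and Spry4 are read as slower signs of ERK output.

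The promoters of Fos, Dusp1 and Atf3 are shown because these genes were the 3 higher in mutant than in vector tumours under the antibody, and that of Dusp6 as an ERK-linked gene beside them. Each run is the 250 bases before the RefSeq start on GRCm38.p6, the assembly of mm10, read 5′ to 3′ on the gene's strand. They lie at chr12:85473640-85473889 (plus strand, Fos), chr17:26508473-26508722 (minus strand, Dusp1), chr1:191183334-191183583 (minus strand, Atf3) and chr10:99262981-99263230 (plus strand, Dusp6). The Dusp1 and Atf3 runs lie inside the longer GENCODE intervals given below for these genes, not before their outer ends. Capitals mark the cyclic AMP response element TGACGTCA or its half-site TGACG on either strand.
Fos: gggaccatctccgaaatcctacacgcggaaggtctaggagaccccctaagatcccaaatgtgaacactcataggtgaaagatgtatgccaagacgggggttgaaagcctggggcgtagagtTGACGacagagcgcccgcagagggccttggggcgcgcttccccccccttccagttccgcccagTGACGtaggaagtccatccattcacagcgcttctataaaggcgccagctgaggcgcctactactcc
Dusp1: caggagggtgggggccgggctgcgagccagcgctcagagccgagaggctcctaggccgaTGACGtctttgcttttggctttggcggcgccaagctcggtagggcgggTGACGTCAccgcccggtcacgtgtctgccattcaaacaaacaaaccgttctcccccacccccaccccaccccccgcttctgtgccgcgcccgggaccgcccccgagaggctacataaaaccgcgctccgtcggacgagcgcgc
Atf3: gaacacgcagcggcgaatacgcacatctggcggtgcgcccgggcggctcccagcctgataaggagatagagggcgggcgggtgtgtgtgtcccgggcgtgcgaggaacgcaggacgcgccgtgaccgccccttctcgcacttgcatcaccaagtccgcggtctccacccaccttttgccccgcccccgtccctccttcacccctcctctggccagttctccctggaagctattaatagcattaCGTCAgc
Dusp6: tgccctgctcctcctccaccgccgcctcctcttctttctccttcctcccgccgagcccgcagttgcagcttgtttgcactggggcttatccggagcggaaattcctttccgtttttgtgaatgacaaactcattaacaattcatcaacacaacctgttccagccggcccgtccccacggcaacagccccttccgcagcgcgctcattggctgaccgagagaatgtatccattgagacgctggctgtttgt
Promoters of 7 of the 10 genes were searched, on both strands. Those of Egr1, Fosl1 and Spry4 were not searched, so the counts below say nothing of them. The half-site TGACG was found in 5 of the 7 (Fos, Fosb, Junb, Dusp1 and Atf3) and in 17.7% of all 32817 promoters of that length. It was chosen for the search after these sequences had been seen. The full element, which contains the half-site, was found in Dusp1 alone, 143 to 136 bases before the start, and in 1.55% of all promoters. The AP-1 site TGANTCA and the serum response factor CArG box were found in none of the 7, and in 6.75% and 1.47% of all promoters. These are letter matches in a short window and say nothing of which factor was bound.

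The files hold FPKM per gene and library, and read numbers are unknown. Relative depth could be recovered from low values and spanned a 1.7-fold range over the 20 libraries. The number of genes at or above 1 FPKM ran from 11182 to 13769 per library. Of the 20 libraries, 3, mutant anti-PD-1 replicates 1 and 2 and vector anti-PD-1 replicate 1, correlated least with the rest, at a mean Spearman value of 0.748, 0.835 and 0.776 against 0.899 to 0.93 for the others. Where leaving out these 3 libraries ended a call of the 10 genes or moved it by over 1.5 times, the value without them is given. Of 6 colon epithelial markers, Krt20 and Krt18 were present, while Cdx2, Epcam and Vil1 stayed under 1 FPKM in every library. Summed, the 6 markers were at 5.41 FPKM in mutant anti-PD-1 replicate 1 against 43.5 to 88.2 in the other 4 tumours of that group. RNA was taken from whole tumour tissue, so fewer cells of a type and less RNA per cell cannot be told apart.

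Among the early genes, Junb, Jun and Egr1 were the most abundant per transcript length and Fosb the least. Over the 20 tumours the median was 55.5 FPKM for Junb, 52.9 for Egr1, 48.7 for Jun, 11.4 for Dusp1, 6.93 for Fos, 5.38 for Atf3 and 1.42 for Fosb. The first 3 differed by less than the spread between tumours, as did Fos and Atf3. Of the ERK-linked genes, Dusp6 had a median of 61.0 FPKM, Fosl1 30.6 and Spry4 22.6. The spread between tumours of 1 group differed by gene. Fosb and Fos varied most, with pooled SDs of 1.13 and 1.08 on the log2(FPKM + 1) scale, and Junb and Jun least, at 0.45 and 0.46. Dusp6 at 0.63 and Spry4 at 0.77 lay between them, as did Atf3 at 0.61, Egr1 at 0.68, Dusp1 at 0.74 and Fosl1 at 0.82.

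**Figure D1:**
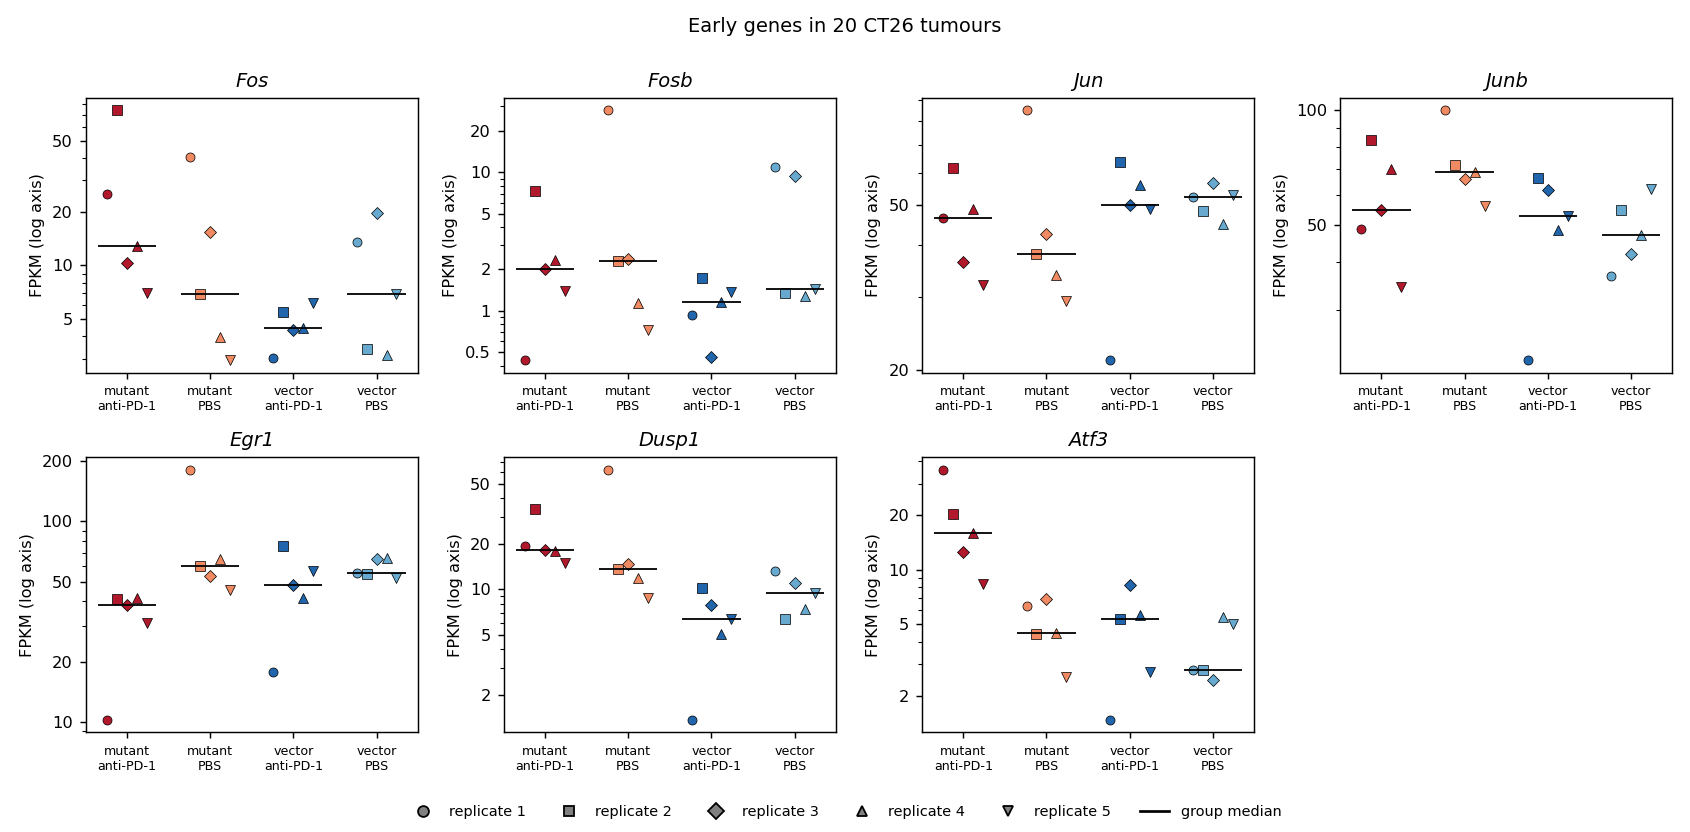
FPKM (log axis) of the 7 early genes in each tumour of the 4 groups, 1 symbol per replicate number, with the group median as a line; numbers only name a tumour. Atf3 in mutant anti-PD-1 tumours (8.31 to 35.8) sits above every other tumour, and mutant PBS replicate 1 is the highest of its group in 6 of the 7 genes.

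The first comparison asks how these genes stood in mutant tumours that received anti-PD-1, set against mutant tumours given PBS. Atf3 was higher, with a log2 fold change of 1.66, while Egr1, Fosl1 and Spry4 were lower, at -1.27 to -1.44. Fos, Fosb, Jun, Junb, Dusp1 and Dusp6 did not pass the threshold of an adjusted p of 0.05 (limma, Benjamini-Hochberg over all 13982 genes). The 4 of 10 called stand beside 30.5% of all genes called in this comparison. Of all genes, 15.9% were called higher, against 1 of the 10, and 14.6% lower, against 3 of the 10. Without the 3 least correlated libraries 2 of the 10 were called, Atf3 and Spry4, beside 22.1% of all genes (12.2% higher and 9.96% lower). With all libraries, the median log2 fold change was -0.28 over the 10 and -0.10 over all genes. Fold changes here are on the log2(FPKM + 1) scale, which understates those of low genes.

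Atf3 (ENSMUSG00000026628, chromosome 1, 191170296 to 191218039) encodes a stress-induced AP-1 partner of the Atf family. It measured 35.8, 20.3, 12.6, 16.0 and 8.31 FPKM in mutant anti-PD-1 tumours and 6.33, 4.42, 6.88, 4.46 and 2.54 in mutant PBS tumours. Vector anti-PD-1 tumours had 1.48, 5.31, 8.19, 5.61 and 2.72 FPKM, and vector PBS tumours 2.78, 2.78, 2.45, 5.45 and 5.02. The lowest mutant anti-PD-1 tumour lay above the highest of each other group, and the 2 highest were replicates 1 and 2, which stand apart. The group means were 18.6 ± 10.6 FPKM in mutant anti-PD-1 and 4.93 ± 1.73 in mutant PBS tumours (SD, n = 5 each). The log2 fold change against mutant PBS was 1.66 ± 0.369 (SE, limma adjusted p = 0.00271) and stayed past the threshold in 32 of 32 alternative fits, with adjusted p up to 0.0267.

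Egr1 (ENSMUSG00000038418, chromosome 18, 34859823 to 34864984) encodes a zinc finger factor induced by ERK through the serum response factor. Mutant anti-PD-1 tumours had 10.3, 41.2, 38.4, 41.5 and 31.2 FPKM, and mutant PBS tumours 181, 59.7, 53.5, 64.9 and 45.8. All 5 mutant anti-PD-1 tumours lay below all 5 mutant PBS tumours, and replicate 1 of each group was far from its other 4. The log2 fold change was -1.27 ± 0.412 (SE, limma adjusted p = 0.0269). It was -0.85 without mutant anti-PD-1 replicate 1 (adjusted p = 0.129), -0.93 without mutant PBS replicate 1 (adjusted p = 0.0715) and -0.78 without the 3 least correlated libraries (adjusted p = 0.127). In vector tumours Egr1 ranged from 17.8 to 75.4 FPKM with anti-PD-1 and from 52.3 to 65.5 with PBS.

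The groups of mutant tumours also separated for Dusp6, although its test did not pass. Groups without overlap, with the antibody group below, were found for 2 of the 10 genes, Egr1 and Dusp6, and for 11.8% of all genes. With the antibody group above, there was 1 of the 10, Atf3, and 11.1% of all genes. Dusp6 (ENSMUSG00000019960, chromosome 10, 99263231 to 99267489) encodes the cytoplasmic phosphatase that removes phosphate from ERK and is itself induced by ERK. It measured 37.6, 38.1, 48.0, 46.6 and 49.8 FPKM in mutant anti-PD-1 tumours and 74.2, 62.8, 54.1, 55.4 and 55.5 in mutant PBS tumours. Vector anti-PD-1 tumours had 9.77, 61.5, 66.9, 74.1 and 76.3 FPKM, and vector PBS tumours 78.2, 69.9, 86.2, 72.3 and 60.4. The value of 9.77 in vector anti-PD-1 replicate 1 was far below the next vector tumour at 60.4, and it enters the spread that all groups share in the test. The log2 fold change in mutant tumours was -0.49 ± 0.378 (SE, limma adjusted p = 0.345) with that library and -0.45 (adjusted p = 0.00592) without it. Without all 3 least correlated libraries it was -0.24 (adjusted p = 0.185).

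Spry4 (ENSMUSG00000024427, chromosome 18, 38586247 to 38601415) encodes a Sprouty protein that restrains Ras and Raf signalling. Mutant anti-PD-1 tumours had 2.59, 9.51, 22.9, 22.3 and 21.3 FPKM and mutant PBS tumours 45.0, 37.7, 22.2, 33.3 and 27.3. Vector anti-PD-1 tumours had 5.39, 23.7, 23.2, 21.6 and 24.8 FPKM, and vector PBS tumours 16.9, 20.6, 20.3, 27.5 and 31.0. The 3 lowest values of the series were those of the 3 libraries that stand apart. Spry4 was lower in mutant anti-PD-1 than in mutant PBS tumours, with a log2 fold change of -1.44 ± 0.398 (SE, limma adjusted p = 0.0112). Without the 3 libraries the change was -0.62 (adjusted p = 0.0458), and with a term for skeletal muscle genes it did not pass (adjusted p = 0.0517).

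Fosl1 (ENSMUSG00000024912, chromosome 19, 5447547 to 5455946) encodes Fra-1, the Fos family protein that ERK both induces and stabilises. It measured 2.54, 8.48, 21.7, 30.2 and 13.6 FPKM in mutant anti-PD-1 tumours and 28.4, 34.5, 18.9, 31.0 and 31.0 in mutant PBS tumours. Vector anti-PD-1 tumours had 6.41, 42.7, 34.5, 34.4 and 26.9 FPKM, and vector PBS tumours 32.1, 31.5, 29.4, 31.1 and 38.1. The groups overlapped, and the 3 libraries that stand apart again held the 3 lowest values. The log2 fold change in mutant tumours was -1.33 ± 0.441 (SE, limma adjusted p = 0.0299), against -0.44 (adjusted p = 0.208) without these 3 libraries. The call was also lost without either of mutant anti-PD-1 replicates 1 and 2 or mutant PBS replicates 1 and 2.

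**Figure D2:**
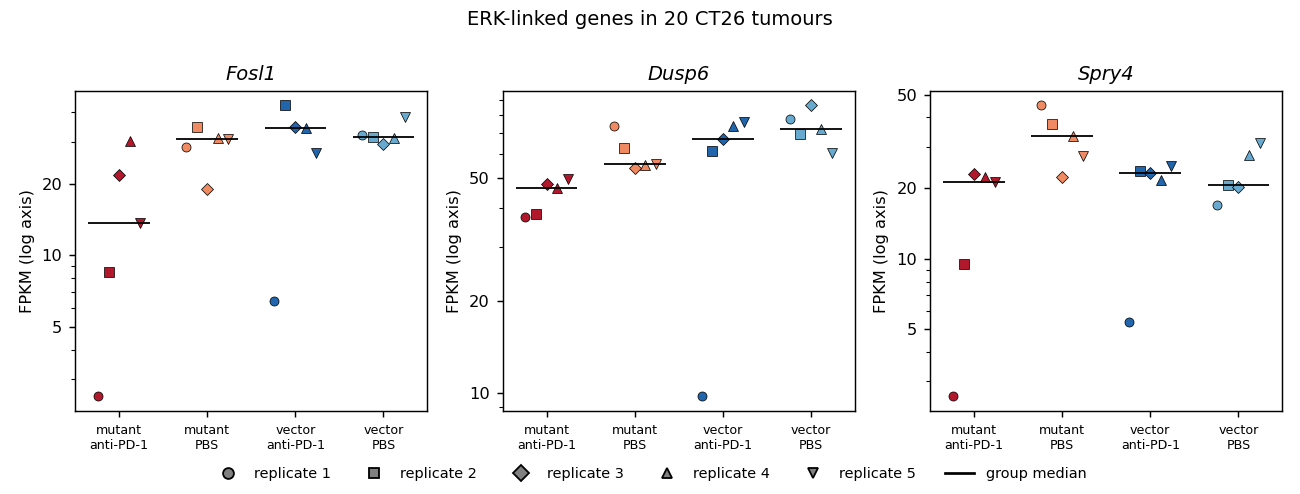
FPKM (log axis) of Fosl1, Dusp6 and Spry4 in each tumour, 1 symbol per replicate number, with the group median as a line. For Dusp6 the mutant anti-PD-1 tumours (37.6 to 49.8) lie below the mutant PBS tumours (54.1 to 74.2), and vector anti-PD-1 replicate 1 is the lowest of its group in all 3 genes.

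The same comparison was made within each style of animal identifier, M and a number or a number alone, a difference whose meaning the labels leave unstated. The 2 M-style tumours of mutant anti-PD-1 are replicates 1 and 2, so this split and the removal of the 3 libraries are not separate checks. Each group held only 2 or 3 tumours of a style. Among M-style libraries the log2 fold change was -2.49 for Spry4 (limma adjusted p = 0.0153), -2.25 for Fosl1 (adjusted p = 0.0382) and -1.95 for Egr1 (adjusted p = 0.0727). Among number-only libraries it was -0.43 for Spry4 (adjusted p = 0.0159), -0.55 for Fosl1 (adjusted p = 0.175) and -0.55 for Egr1 (adjusted p = 0.0539). The direction was the same in both, and all 3 changes were larger among M-style libraries. Atf3 was higher in both, at 2.04 among M-style libraries (adjusted p = 0.00696) and 1.55 among number-only libraries (adjusted p = 0.0219).

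In vector tumours none of the 10 genes passed the threshold between anti-PD-1 and PBS, and neither did any other gene (limma called 0.0% of 13982). The log2 fold changes ran from -1.07 for Fosb to 0.18 for Atf3, the smallest adjusted p was 0.724, and no member had an unadjusted p under 0.05, against 426 of all genes. The antibody and PBS tumours overlapped for each of the 10 genes, where 0.279% of all genes lay above without overlap and 0.501% below. The alternatives, sample weights included, also called 0 of the 10. Fosb, an early partner of Jun, showed the widest gap between the PBS tumours. Vector PBS replicates 1 and 3 had 10.9 and 9.41 FPKM and the other 3 had 1.28 to 1.43, whereas the 5 vector anti-PD-1 tumours had 0.46 to 1.73. The same vector PBS tumours were the 2 highest of their group for Fos.

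Mutant tumours were compared with vector tumours without the antibody, and again none of the 10 genes passed, against 1.45% of all genes (0.529% higher and 0.923% lower). The 2 groups overlapped for each of the 10, where 3.3% of all genes lay above without overlap and 5.74% below. The log2 fold changes ran from -0.28 for Dusp6 to 0.82 for Dusp1, with the smallest adjusted p at 0.469 for Junb. No member had an unadjusted p under 0.05, against 1536 of all genes. Junb measured 56.1 to 100 FPKM in mutant PBS and 36.8 to 62.2 in vector PBS tumours. Its log2 fold change of 0.57 ± 0.274 passed with sample weights alone.

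Mutant tumours were then compared with vector tumours under the antibody. Atf3, Dusp1 and Fos were higher, by log2 fold changes of 1.79 to 2.0, and no member was lower. Without the 3 least correlated libraries Atf3 and Dusp1 were higher, and Fosl1 and Dusp6 were lower, beside 11.6% of all genes in each direction. With all libraries, the 3 of 10 called stand beside 32.9% of all genes called, and beside 17.8% called higher. Lower calls were 0 of the 10, beside 15.1% of all genes. All 3 were early genes, and for each of them all 5 mutant tumours lay above all 5 vector tumours, as 12.1% of all genes did. No member lay below without overlap, where 7.83% of all genes did. Both antibody groups hold libraries that stand apart, and the comparisons of mutant anti-PD-1 tumours share those tumours, so they are not independent of each other.

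Dusp1 (ENSMUSG00000024190, chromosome 17, 26505590 to 26562128) encodes a nuclear phosphatase that switches off the stress kinases p38 and JNK as well as ERK. It measured 19.5, 33.8, 18.1, 18.1 and 15.0 FPKM in mutant anti-PD-1 tumours and 61.9, 13.7, 14.8, 11.9 and 8.8 in mutant PBS tumours. Vector anti-PD-1 tumours had 1.37, 10.2, 7.86, 5.07 and 6.34 FPKM, and vector PBS tumours 13.2, 6.34, 10.9, 7.36 and 9.44. Mutant PBS replicate 1 was the highest of all, and the other 4 mutant PBS tumours lay below every mutant anti-PD-1 tumour and overlapped the vector groups. The log2 fold change between mutant and vector tumours under the antibody was 1.79 ± 0.432 (SE, limma adjusted p = 0.00413) and passed in 32 of 32 alternatives. Averaged over both treatments it was 1.31 ± 0.304 (adjusted p = 0.00457), also past the threshold in 32 of 32.

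Fos (ENSMUSG00000021250, chromosome 12, 85473890 to 85477273) encodes the founding AP-1 subunit. Mutant anti-PD-1 tumours had 25.0, 74.2, 10.3, 12.9 and 6.97 FPKM, and mutant PBS tumours 40.7, 6.9, 15.4, 3.95 and 2.95. Vector anti-PD-1 tumours had 3.04, 5.47, 4.35, 4.49 and 6.16 FPKM, and vector PBS tumours 13.6, 3.42, 19.6, 3.16 and 6.95. The values in vector anti-PD-1 tumours were close together, while the other 3 groups each spanned several fold, 10.6-fold in mutant anti-PD-1 and 13.8-fold in mutant PBS tumours. The log2 fold change under the antibody was 2.0 ± 0.525 (SE, limma adjusted p = 0.00732). It was 1.34 (adjusted p = 0.144) without the 3 least correlated libraries and 0.80 (adjusted p = 0.111) among number-only libraries. Against mutant PBS, the log2 fold change of Fos in mutant anti-PD-1 tumours was 1.14, which was not past the threshold (adjusted p = 0.107).

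For Atf3 the log2 fold change between mutant and vector tumours under the antibody was 1.81 ± 0.369 (SE, limma adjusted p = 0.00121), lost among number-only libraries alone (1.14, adjusted p = 0.0769). It was 1.07 (adjusted p = 0.0416) without the 3 least correlated libraries. Fosl1 was just outside the threshold, at -1.14 ± 0.441 (adjusted p = 0.054), and passed in 6 of 32 alternatives. Dusp6 was at -0.16 (adjusted p = 0.787) with all libraries and at -0.66 (adjusted p = 0.000737) without vector anti-PD-1 replicate 1. Leaving out all 3 least correlated libraries gave -0.46 for Dusp6 (adjusted p = 0.0156). Among number-only libraries, which hold none of those 3, it was -0.56 (adjusted p = 0.00554). Its sign was positive, at no more than 0.07, among M-style libraries, with the muscle term, and without vector anti-PD-1 replicate 4 or 5.

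**Figure D3:**
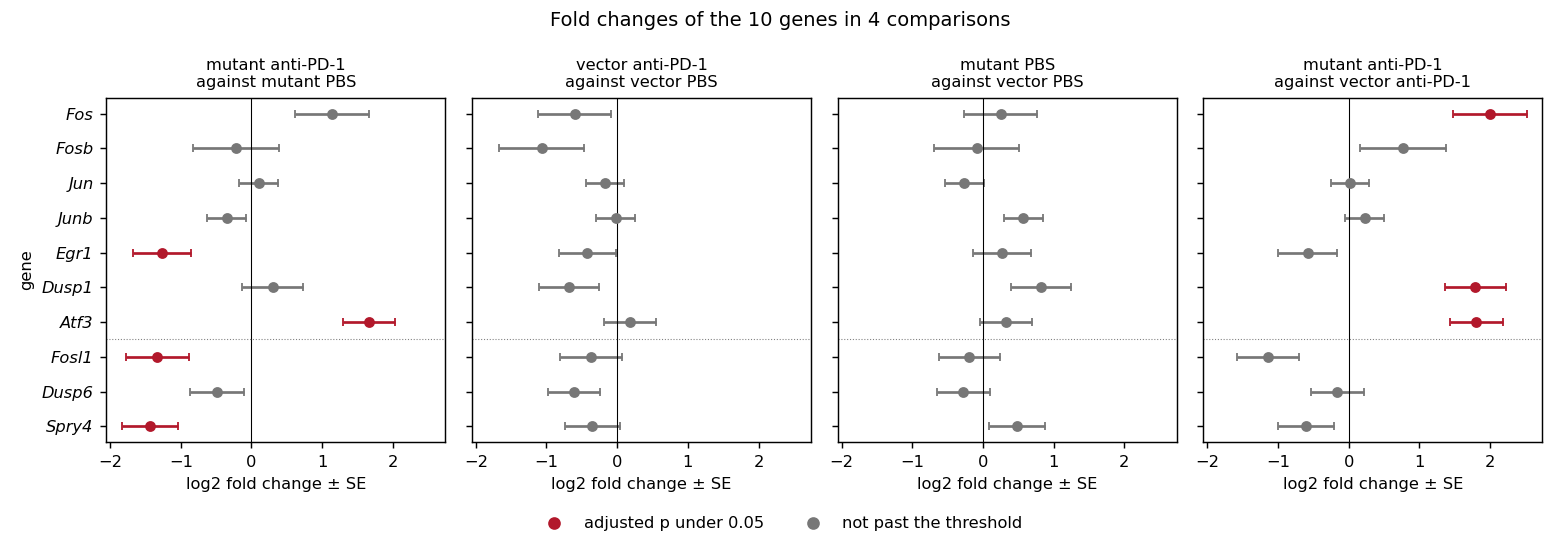
Log2 fold changes (x axis, log2(FPKM + 1) scale) of the 10 genes with their SE as bars in 4 comparisons; red points have an adjusted p under 0.05. Atf3 (1.66 and 1.81) is red in both comparisons of mutant anti-PD-1 tumours, and no point is red in the vector comparison or between the PBS groups.

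Whether the response to the antibody differed between tumour types was tested as an interaction, and none of the 10 genes passed, against 9.35% of all genes (7.4% higher and 1.95% lower). Atf3 came nearest at 1.48 ± 0.519 (SE, limma adjusted p = 0.0756), followed by Fos at 1.74 ± 0.738 (adjusted p = 0.139). Atf3 was at 0.74 (adjusted p = 0.349) without the 3 least correlated libraries. At an unadjusted p under 0.05 there were 2 members, beside 3779 of all genes, and Atf3 passed with sample weights. The calls made in mutant and not in vector tumours are therefore not shown to differ between them. Averaged over the treatments, 3 of the 10 were higher in mutant tumours, beside 13.6% of all genes (24.7% called in all, 11.1% of all genes lower). They were Dusp1, Atf3 at 1.07 ± 0.259 (adjusted p = 0.00585) and Fos at 1.12 ± 0.369 (adjusted p = 0.0329). Among number-only libraries the averaged changes were 0.32 for Atf3 (adjusted p = 0.509) and 0.21 for Fos (adjusted p = 0.593). Without the 3 least correlated libraries Dusp1 and Atf3, the second at 0.70 (adjusted p = 0.0302), were higher on average, Fosl1 and Dusp6 were lower, and Fos did not pass (0.79, adjusted p = 0.15). Of all genes, 13.3% were then higher and 15.7% lower. Averaged over the tumour types, 2 of the 10 passed between anti-PD-1 and PBS, beside 18.6% of all genes (10.2% higher and 8.43% lower). Atf3 was higher at 0.92 ± 0.259 (adjusted p = 0.0211) and Spry4 lower at -0.89 ± 0.28 (adjusted p = 0.0334), lost in 2 and 12 of 32 alternatives, and Spry4 was at -0.30 (adjusted p = 0.165) without the 3 libraries. Over all genes this average gave 1426 higher and 1178 lower calls, and 1744 higher and 876 lower with median-of-ratios scaling between libraries.

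Cell type markers moved with these comparisons. T cell markers (Cd3e and 5 others) summed to 65.9 to 96.5 FPKM in mutant anti-PD-1 tumours, against 1.19 to 31.0 in mutant PBS, 1.46 to 7.1 in vector anti-PD-1 and 0.22 to 1.75 in vector PBS tumours. Macrophage markers summed to 1300 to 3310 FPKM in mutant anti-PD-1 tumours, against 318 to 870, 356 to 894 and 460 to 700 in those same 3 groups. Against mutant PBS, 6 of 6 T cell, 5 of 6 macrophage, 6 of 6 fibroblast and 4 of 5 endothelial markers were higher in mutant anti-PD-1 tumours, beside 15.9% of all genes. Without the 3 least correlated libraries 6 T cell and 5 macrophage markers were higher and no fibroblast or endothelial marker was, beside 12.2% of all genes. The fibroblast sum reached 2340 and 1480 FPKM in mutant anti-PD-1 replicates 1 and 2, against 268 to 335 in its other 3 tumours. The part of these cells in the values of the 10 genes was not tested. Skeletal muscle markers summed to 82.2 to 1370 FPKM in mutant anti-PD-1 tumours and 0.547 to 898 in mutant PBS tumours. In vector tumours they summed to 0.939 to 444 FPKM with anti-PD-1 and 1.41 to 6.95 with PBS. In mutant PBS replicate 1, where 6 of the 7 early genes were the highest of the group, the muscle sum was 0.547 FPKM.

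Within groups the early genes varied together from tumour to tumour in many pairs but not in all. With group means taken off, the 21 pairs of early genes had a median Pearson r of 0.62 over the 20 tumours, and 12 of them passed in both Pearson's r and Spearman's rho (100000 permutations within groups, adjusted over all 45 pairs of the 10 genes). Over all pairs of the 13982 tested genes the median r was 0.10, and 15.0% of pairs reached 0.62. Without the 3 least correlated libraries the early pairs had a median of 0.64, against 0.02 over all pairs, of which 3.7% reached 0.64. Without the 2 tumours farthest from the median on the x axis, the early pairs had a median of 0.48.

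Jun, the main partner of the Fos proteins (ENSMUSG00000052684, chromosome 4, 95049034 to 95052222), and Dusp1 were the closest pair. Their r was 0.93 (permutation p = 5e-05, adjusted p = 0.00075) and their rho 0.86 (permutation adjusted p = 0.0024), and r was 0.74 without the 2 farthest tumours. Fos and Fosb (ENSMUSG00000003545, chromosome 7, 19302696 to 19310051) had an r of 0.81 and a rho of 0.71 (permutation adjusted p = 0.0086 and 0.022), and r was 0.63 without the 2 farthest tumours. For Egr1 and Dusp1, r was 0.74 and rho 0.62 (permutation adjusted p = 0.022 and 0.043). Atf3 stood aside from Fosb and Egr1, with an r of -0.03 and 0.09. Its closest early pairs were Junb at 0.62 and Jun at 0.61. They passed in r (permutation adjusted p = 0.039 and 0.028) but not in rho (permutation adjusted p = 0.12 and 0.11). Junb (ENSMUSG00000052837, chromosome 8, 84974484 to 84978718), which encodes a Jun protein that can oppose Jun, paired most closely with Jun at 0.82.

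Among the ERK-linked genes the correlations were lower without the libraries that stand apart. Their 3 pairs had a median r of 0.66, and 0.10 without the 3 least correlated libraries. Fosl1 and Spry4 had an r of 0.92 and a rho of 0.79 (permutation adjusted p = 0.0049 and 0.022), against an r of 0.38 without those libraries and 0.67 without the 2 tumours farthest from the median on the x axis. The 21 pairs of an early with an ERK-linked gene had a median r of 0.31, which was also 0.31 without the 3 libraries but -0.05 without the 2 farthest tumours. Of them 2 passed, both with Egr1. Egr1 with Spry4 reached 0.79 (permutation adjusted p = 0.017) and 0.55 without the 3 libraries. Egr1 with Dusp6 reached 0.61, and 0.48 without them.

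**Figure D4:**
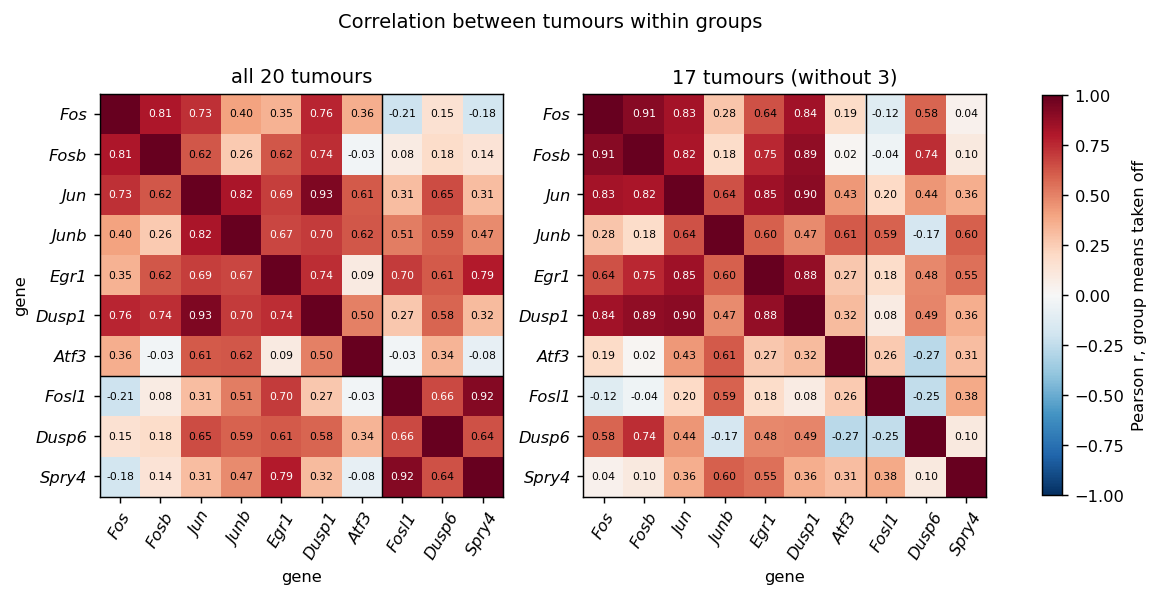
Pearson r between each pair of the 10 genes on the log2(FPKM + 1) scale with group means taken off, for all 20 tumours (left) and without the 3 least correlated (right); lines set the 7 early genes apart from Fosl1, Dusp6 and Spry4. Fosl1 with Spry4 is 0.92 on the left and 0.38 on the right, while Jun with Dusp1 is 0.93 and 0.90.

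Single tumours often held the highest or lowest values of their group. Mutant PBS replicate 1 had the highest value of its group in 6 of the 7 early genes and in 16 of 22 other immediate early genes tested, while mutant PBS replicate 5 was the lowest of its group in all 7. Mutant anti-PD-1 replicate 2 was the highest of its group in 5 of the 7, and mutant anti-PD-1 replicate 5 the lowest in 5. Vector anti-PD-1 replicate 1 was the lowest of its group in 6 of the 7 early genes and in all 3 ERK-linked genes. Its median-of-ratios factor was 0.658, against 1.006 to 1.0698 in the others of its group. Genes in general were therefore lower in that library. The share of all genes that were highest or lowest in the libraries named here was not counted. Of 8 heat shock genes, which tissue handling can also induce, 5 had their highest value of the group in mutant PBS replicate 1, and Hspa8, Hsp90aa1 and Hspb1 did not. How long each tumour waited before RNA was taken is not given in the sources used here, and its part was not tested.

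Other genes of the pathway were read from lists. Of 13 other ERK output and feedback genes, 1 was higher and 6 were lower in mutant anti-PD-1 than in mutant PBS tumours, beside 15.9% higher and 14.6% lower of all genes. Their median log2 fold change was -0.55, against -0.10 over all genes. Ccnd1, the cyclin that ERK induces in the first growth phase, averaged 140 ± 68.9 FPKM in mutant anti-PD-1 and 241 ± 23.4 in mutant PBS tumours (SD, n = 5 each). Its log2 fold change was -1.1 (limma adjusted p = 0.00517). The receptor Epha2 fell by 1.46 on that scale (adjusted p = 0.00611) and the nuclear ERK phosphatase Dusp5 fell by 0.80 (adjusted p = 0.0113). The Sprouty gene Spry1 was higher, at 1.87 ± 1.17 FPKM against 0.578 ± 0.354 (log2 fold change 0.86, adjusted p = 0.0041), the opposite direction to Spry4. Without the 3 least correlated libraries 2 of the 13 were lower, Ccnd1 at -0.45 (adjusted p = 0.00432) and Epha2 at -0.71 (adjusted p = 0.00996), and none was higher, beside 9.96% lower and 12.2% higher of all genes.

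Under the antibody, 1 of these 13 was higher and 4 were lower in mutant than in vector tumours, beside 17.8% and 15.1% of all genes. Spry1 was the higher one, and the ETS factors Etv4 at -1.14 (limma adjusted p = 0.00844) and Etv1 at -0.58 (adjusted p = 0.0176) were among the lower. Without the 3 libraries 2 were lower, Etv4 at -0.34 (adjusted p = 0.0339) and Epha2 at -0.71 (adjusted p = 0.00978), and none was higher, beside 11.6% in each direction of all genes. Between the PBS groups Etv1 alone of the 13 passed, at 2.84 ± 0.397 FPKM in mutant and 5.46 ± 1.34 in vector tumours (log2 fold change -0.73, adjusted p = 0.0401).

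Of 22 other immediate early genes, 3 were higher and 6 lower in mutant anti-PD-1 than in mutant PBS tumours (median -0.13), beside 15.9% and 14.6% of all genes. The antiproliferative gene Btg2 was higher, at 13.8 ± 7.06 FPKM against 4.99 ± 1.0 (log2 fold change 1.22, limma adjusted p = 0.00328), and Myc was lower, at 13.6 ± 3.06 against 29.9 ± 13.3 (log2 fold change -1.01, adjusted p = 0.00601). Without the 3 libraries, 3 were higher and 1 lower, beside 12.2% and 9.96% of all genes. Btg2 was then at 0.70 (adjusted p = 0.0129), and Myc no longer passed (adjusted p = 0.0973). Under the antibody, 7 of the 22 were higher and 1 lower in mutant than in vector tumours, beside 17.8% and 15.1% of all genes. Zfp36, which encodes a protein that marks cytokine transcripts for decay, was at 31.5 ± 15.9 FPKM in mutant and 9.55 ± 4.34 in vector tumours (log2 fold change 1.74, adjusted p = 0.0018). Ccn2, a matrix protein gene, was higher by 1.43 (adjusted p = 0.000196), Btg2 by 1.6 (adjusted p = 0.000332) and Klf2 by 0.90 (adjusted p = 0.00374). Without the 3 libraries 4 of the 22 were higher and 1 lower, beside 11.6% in each direction of all genes. Zfp36 was then at 0.96 (adjusted p = 0.00753) and Btg2 at 0.87 (adjusted p = 0.00368).

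Of 8 other AP-1 and related leucine zipper genes, 3 were higher and 1 lower in mutant anti-PD-1 than in mutant PBS tumours, beside 15.9% and 14.6% of all genes. The 3 higher were the Batf genes, which encode AP-1 partners best known from immune cells. Batf measured 7.73 ± 5.96 FPKM against 1.5 ± 0.646 (log2 fold change 1.68, limma adjusted p = 0.000252), Batf3 changed by 1.15 (adjusted p = 0.000557) and Batf2 by 0.92 (adjusted p = 0.0424). The lower one was Atf2, at -0.46 (adjusted p = 0.0408). Without the 3 libraries Atf2 no longer passed (adjusted p = 0.0937), and the Batf genes stayed higher, with Batf at 0.99 (adjusted p = 0.00381) and Batf2 at 1.42 (adjusted p = 0.00227). The same 3 were higher than in vector anti-PD-1 tumours. With all libraries, T cell, macrophage, fibroblast and endothelial markers were also higher than in mutant PBS tumours, as given above. The part of these cells in the Batf values was not tested.

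Of 21 genes of the ERK cascade itself, 2 were higher and 2 lower in mutant anti-PD-1 than in mutant PBS tumours, with a median of -0.16, and both counts are below the 15.9% and 14.6% of all genes. Rps6ka1, which encodes an ERK-activated kinase, was at 11.3 ± 3.99 FPKM against 2.68 ± 1.43 (log2 fold change 1.81, limma adjusted p = 1.77e-05). Mapk3, which encodes ERK1, was lower at -0.40 (adjusted p = 0.00381). Leaving out the 3 libraries gave 1 higher and 3 lower, beside 12.2% and 9.96% of all genes.

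Of 14 secreted and surface genes tied to AP-1, 1 was higher and 8 were lower in mutant anti-PD-1 than in mutant PBS tumours, with a median of -0.88, beside 15.9% higher and 14.6% lower of all genes. The EGF receptor ligand Areg was at 2.32 ± 1.42 FPKM against 24.7 ± 12.1 (log2 fold change -2.95, limma adjusted p = 1.41e-05), and the urokinase receptor gene Plaur changed by -1.23 (adjusted p = 0.00109). Without the 3 libraries 6 of the 14 were lower and none higher, beside 9.96% and 12.2% of all genes. Of the 8 heat shock genes, 3 were lower and none higher, set against the same 14.6% and 15.9%. Hsp90aa1 was at 158 ± 77.6 FPKM against 263 ± 37.2 (log2 fold change -1.05, adjusted p = 0.0293), and without the 3 libraries it alone of the 8 was lower, at -0.50 (adjusted p = 0.0101).

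Between anti-PD-1 and PBS in vector tumours, no gene of any of these 6 lists passed. In the interaction, 3 of the 14 secreted and surface genes passed on the lower side, beside 1.95% of all genes: Areg (-2.74, limma adjusted p = 0.00378), Timp1 and Hbegf. Areg alone of them passed without the 3 libraries (-2.67, adjusted p = 0.0307). Of the other 5 lists, Rps6ka1 of the 21 cascade genes passed on the higher side (1.68, adjusted p = 0.00464). So did Batf of the 8 leucine zipper genes (1.57, adjusted p = 0.0197) and Btg2 of the 22 immediate early genes (1.28, adjusted p = 0.0475). Higher calls were 7.4% of all genes. Hspe1 of the 8 heat shock genes passed on the lower side (-1.01, adjusted p = 0.0476), and none of the 13 ERK output genes passed. Of these 4 passing genes, Rps6ka1 alone passed without the 3 libraries (1.37, adjusted p = 0.0437). Of all genes, 2.16% were then higher and 0.608% lower in the interaction. The tested genes with the pattern most like each ERK-linked gene over the 20 libraries were named by Spearman's rho. They were Maged1 (0.96), Ltbp3 (0.92) and Mars2 (0.92) for Dusp6, Odc1 (0.96), Ern1 (0.94) and Ddx23 (0.94) for Spry4, and Bcar3, Hsf2 and Gja1 (0.87 each) for Fosl1. For Fos they were Ist1 (0.82), Ccn2 (0.81) and Zfp36 (0.79), of which the second and the third belong to the immediate early list. These values include the differences between groups and the libraries that stand apart.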

How the data were processed

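RNA was extracted with Trizol from whole CT26 tumours and made into Illumina libraries, per the labels' protocols. The authors deposited 1 value per gene and library with no unit in the header, taken here as FPKM because Cuffnorm stands in the submitters' processing notes and the values, not whole, sum to 328740 to 566913 per library. FastQC, STAR 2.5, mm10 and a package for differential expression stand there too, without roles. Not given in the sources used here are the annotation, strandedness, scaling, and how reads shared between genes were handled. Absolute depth is unknown, so no counting interval is given. Overlapping and antisense genes cannot be told apart here. The 20 tables all differed, with a highest Spearman correlation of 0.983 over tested genes. Of 55335 identifiers, 55154 matched GENCODE vM21.

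limma 3.58.1 (R 4.3.3, trend on) was run on log2(FPKM + 1) of the 13982 genes that reached 1 FPKM in 5 or more libraries. It estimated 4 group means and 1 term for identifier style from all 20 libraries. Calls have a Benjamini-Hochberg adjusted p under 0.05 over all these genes. The design's test for counts did not apply. The style term itself passed for 6 genes, none of them among the 10. Before adjustment, 2982 of the 13982 genes had a limma p under 0.05 for style. Fos, Fosb, Fosl1 and Spry4 were among them. The 3 least correlated libraries are all M-style, so style and these libraries are not fully separate. The fit was tested on simulated data. Contrasts were tested in 7 comparisons, and p-values rest on the spread between the tumours of the 5 mice the design text gives per group. Correlations used Python 3.11.15 with numpy 2.4.6 and 100000 seeded permutations within groups.

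The 10 genes, the gene lists and the markers were chosen with earlier results of these data known. Named genes were all 10, up to 4 passing genes of each list with the smallest p, and the 3 genes most like Fos, Fosl1, Dusp6 and Spry4. Alternatives were another pseudocount (0.1), no filter or a stricter one (5 FPKM), no style term, each style alone, median-of-ratios scaling, no trend, sample weights, a muscle term, leaving out the 3 least correlated libraries, and leaving out each library in turn.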

Additional observations from a re-analysis of the deposited data

Results flagged for a closer look

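In each gene and group of 5 tumours, the highest or lowest tumour was compared with the others by Dixon's ratio on the log2(FPKM + 1) scale. The ratio is the gap to the nearest tumour over the whole range, with a critical value of 0.71. Values below are given in FPKM, while their ratios are on the log2 scale. Of 40 such groups 8 held a tumour past it, where chance gives about 1 in 20, and the genes share libraries, so the 8 are not independent. They lie in 3 libraries.

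Mutant PBS replicate 1 was high in 3 early genes. It had 28.2 FPKM of Fosb (ratio 0.764), 181 FPKM of Egr1 (0.748) and 61.9 FPKM of Dusp1 (0.743). Its muscle marker sum was 0.547 FPKM and its mean Spearman correlation with the other libraries was 0.906, within the range of the libraries that do not stand apart.

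Vector anti-PD-1 replicate 1 was low in 4 genes, which include all 3 ERK-linked ones. It had 5.39 FPKM of Spry4 (ratio 0.906), 9.77 FPKM of Dusp6 (0.892), 6.41 FPKM of Fosl1 (0.748) and 21.1 FPKM of Jun (0.762). Its values summed to 566913 FPKM, where the median library summed to 355875. Besides leaving it out, the fit was repeated with median-of-ratios scaling, where its factor was 0.658. With that scaling Dusp6 between mutant and vector tumours under the antibody was at -0.19 (limma adjusted p = 0.657). The part of the library-wide shift in these values was not tested directly.

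Mutant anti-PD-1 replicate 1 had 10.3 FPKM of Egr1 (ratio 0.791). It is also the lowest of its group in Fosl1, Dusp6 and Spry4, and its colon epithelial marker sum was 5.41 FPKM.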

How the results depend on the processing

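Of the 70 gene and comparison results, 28 had an unadjusted p under 0.05 or a call in any setting. Of their 896 values, 795 kept their direction and side of the threshold, 44 gained a call, 52 lost one and 5 changed sign. These sign changes were Dusp6 between mutant and vector tumours under anti-PD-1 (0.07 among M-style libraries, 0.04 with the muscle term, and 0.01 without vector anti-PD-1 replicate 4 or 5, within a leave-one-out range of -0.66 to 0.01) and Jun in the genotype average (0.16 among M-style libraries, -0.12 with all). Over all 70 results, 99 of 2233 values in 25 results changed sign, among them Fosb in mutant tumours (-0.22, up to 0.65) and Fos between the PBS groups (0.25, down to -0.38). None of the 99 was past the threshold with either sign. The number of the 10 genes called between anti-PD-1 and PBS in mutant tumours was 4, against 6 with sample weights, 2 with no filter, 2 without the 3 least correlated libraries, 1 with the muscle term, 2 without those 3 and mutant PBS replicate 1, and 2 to 5 when 1 library was left out (2 without mutant anti-PD-1 replicate 1). Between the PBS groups it was 0, against 2 with sample weights and 2 without those 4 libraries, where the calls over all 13982 genes were 203, 2710 and 1220 under the same 3 settings. Between mutant and vector tumours under anti-PD-1 it was 3, against 5 with sample weights and 3 to 5 when 1 library was left out (5 without vector anti-PD-1 replicate 1). In the interaction it was 0, against 1 with sample weights and 0 to 1 leaving out 1 library (1 without mutant anti-PD-1 replicate 5 or vector anti-PD-1 replicate 3). In the genotype average it was 3, against 2 to 5 (5 without vector anti-PD-1 replicate 1). In the treatment average it was 2, against 1 with no filter, no style term, number-only libraries, or without the 3 or the 4 libraries, 0 with the muscle term, and 1 to 4 leaving out 1 library (1 without mutant anti-PD-1 replicate 1, mutant PBS replicate 1 or 2, vector anti-PD-1 replicate 3 or vector PBS replicate 2 or 3, and 4 without mutant anti-PD-1 replicate 4 or vector anti-PD-1 replicate 2). Over all 13982 genes, mutant anti-PD-1 against mutant PBS gave 4271 calls, and 6460 with sample weights. This comparison gave 3097 without the 3 libraries and 2608 with the muscle term. Mutant against vector under anti-PD-1 gave 4601, 5144 with sample weights and 6042 without vector anti-PD-1 replicate 1. The interaction gave 1308, and 3214 with sample weights. The genotype average gave 3455, and 4991 without that library. The treatment average gave 2604, and 578 with the muscle term. Leaving out those 4 libraries was chosen after seeing the data. The cause was not tested. No paired analysis was possible because the numbers only follow the order of deposition and every tumour has its own animal identifier. Depth is unknown, so no limit from counting can be set.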
